A study of Mus musculus with 8 samples.

Results

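Neat1 is a long noncoding RNA that stays in the nucleus, where it is the scaffold of paraspeckles, bodies that hold RNA-binding proteins and some edited RNAs. A single promoter gives a short transcript, which ends at a poly(A) signal, and a long transcript, which reads past that signal and lacks a conventional poly(A) tail. The long transcript is the one that paraspeckles need to form. In the adult mouse brain the short transcript is known to be much the more widely found, and Neat1 levels are known to move with neuronal activity and stress.

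Neat1 was measured by 3 of the 60804 probes of the normalized table, chosen by probe name because the study's list of strain differences holds them. Brainstem RNA came from 4 C57BL/6 and 4 DBA/1 mice, all male and 5 weeks old, with 1 array per mouse. By the study's methods, none of the mice had been exposed to the seizure-inducing sound, and mice of both strains were killed under isoflurane, an anaesthetic, before the whole brainstem was taken. DBA/1 is an inbred strain prone to seizures and respiratory arrest on loud sound, and C57BL/6 is the strain set against it. Each array was a one-colour Arraystar mouse lncRNA array with 60-base probes. RNA was depleted of rRNA and labelled by random priming along the whole transcript, so labelling did not start from a poly(A) tail.

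The probes are named here by the transcript that the array's annotation gives them. ASMM10P018838, the short-transcript probe, was assigned to NR_003513 (RefSeq). ASMM10P018837, the long-transcript probe, was assigned to ENSMUST00000173672 (Ensembl). ASMM10P003759, the spliced-transcript probe, was assigned to ENSMUST00000174829 (Ensembl). The sequences are shown because they tell the probes apart. Capitals in the short-transcript probe mark AATAAA, the canonical poly(A) signal. Capitals in the long-transcript probe mark TTTTGCTTTT and AAAAGCAAAA, the longest run in that probe whose reverse complement the probe also holds, since the 3′ end of long Neat1 is known to fold U-rich and A-rich tracts into a triple helix that stands in for a poly(A) tail.
ASMM10P018838: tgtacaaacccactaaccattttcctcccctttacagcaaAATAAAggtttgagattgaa
ASMM10P018837: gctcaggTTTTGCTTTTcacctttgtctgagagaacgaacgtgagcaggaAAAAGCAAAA
ASMM10P003759: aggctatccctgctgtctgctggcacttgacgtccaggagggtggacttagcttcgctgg

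AATAAA begins at base 41 of the 60 bases of the short-transcript probe. It was not rare: 192 of 1183 listed probes (16.2%) held it on the printed strand and 219 (18.5%) on either strand. The long-transcript probe was the only listed probe with TTTTGCTTTT and the only one with AAAAGCAAAA, searched on both strands, and these begin at its bases 8 and 51. Both runs were taken from this probe and are 10 bases long, so the lack of other matches says little. Of the 1183 listed probes, it was the only 1 with any run of at least 10 bases whose reverse complement it also held. The median longest such run was 5 bases. A match is a description of the probe and says nothing of what bound there. G and C made up 36.7% of the short-transcript probe, 43.3% of the long-transcript probe and 60.0% of the spliced-transcript probe, against a median of 40.0% over the listed probes. No pair of the 3 probes shared a run of more than 7 bases on either strand. The sequence of DBA/1 mice under the probes was not used here.

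All 3 transcripts lie on the minus strand of chromosome 19, in an intergenic stretch by the array's annotation. The positions fit GRCm38: RefSeq places Neat1 at chr19:5824708-5845480 on GRCm38.p6. The short transcript spans chr19:5842302-5845478, its listed length of 3177 bases equals its span, and it is therefore given as 1 exon. The long transcript spans chr19:5824708-5845478, also without introns, with a length of 20771 bases. The spliced transcript spans chr19:5843681-5845259, and its length of 1030 bases leaves 549 bases of that span as intron.

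The region that the annotation gives a probe shows what each one can read. For the long-transcript probe it is chr19:5824721-5825997, starting 19483 bases past the 5′ end of the gene, far beyond the end of the short transcript, and no other transcript is listed for it. For the short-transcript probe it is chr19:5842320-5843680, and the annotation also lists the long transcript and uc008gfk.1 as targets. By this annotation the short-transcript probe reads the short and the long transcript together. For the spliced-transcript probe it is chr19:5844948-5845206, starting 274 bases from the 5′ end, with no other target listed, although this stretch lies inside the unspliced short and long transcripts.

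**Figure D1:**
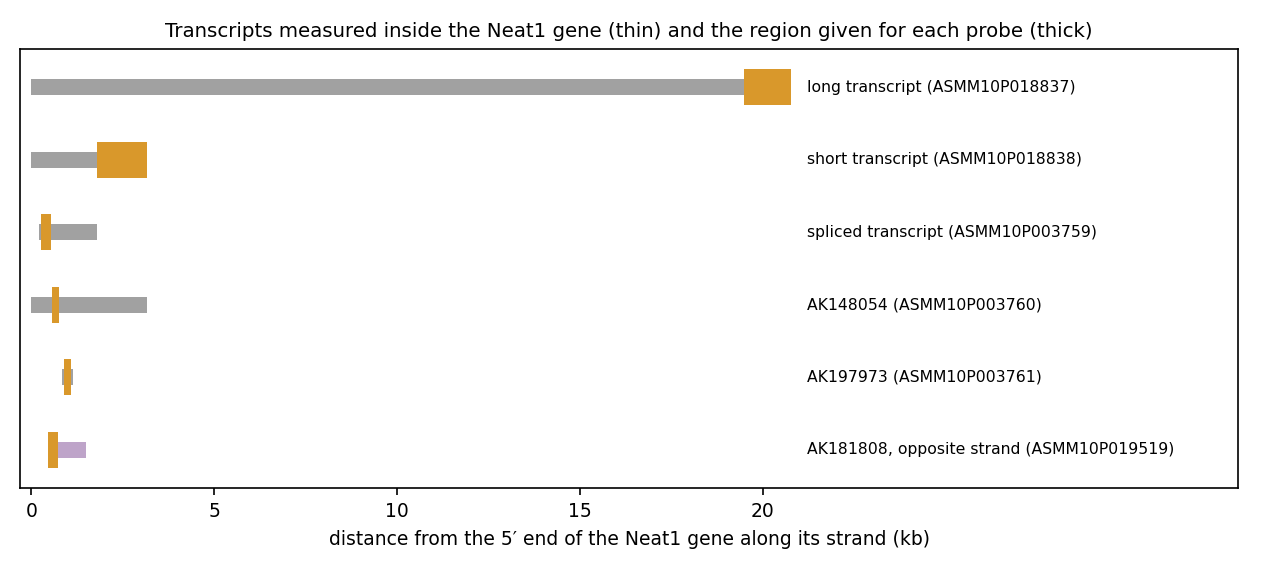
Thin bars are the transcripts assigned to 6 probes inside Neat1 and thick bars the regions given for the probes, by distance from the 5′ end of the gene (kb); the purple bar is on the opposite strand. The region of the long-transcript probe lies near 20 kb, apart from the other 5, which lie in the span of the short transcript.

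All 3 probes read lower in DBA/1 than in C57BL/6 brainstem, by very different routes. The short-transcript probe was bright on every array and fell from 13.11 ± 0.08 to 10.33 ± 0.09 on the normalized log2 scale (mean ± SD, n = 4 per strain). The long-transcript and spliced-transcript probes were dim in C57BL/6 and at or near background in DBA/1. The 3 probes were picked because this contrast called them, so their strain differences are given as a description with no test. Each was at least 2-fold lower at an unadjusted p under 0.05 by limma, as were 3.22% of the 32875 probes tested in that direction, and nothing is read from this count. In whole brainstem, fewer cells that contain Neat1 and less Neat1 per cell cannot be told apart.

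**Figure D2:**
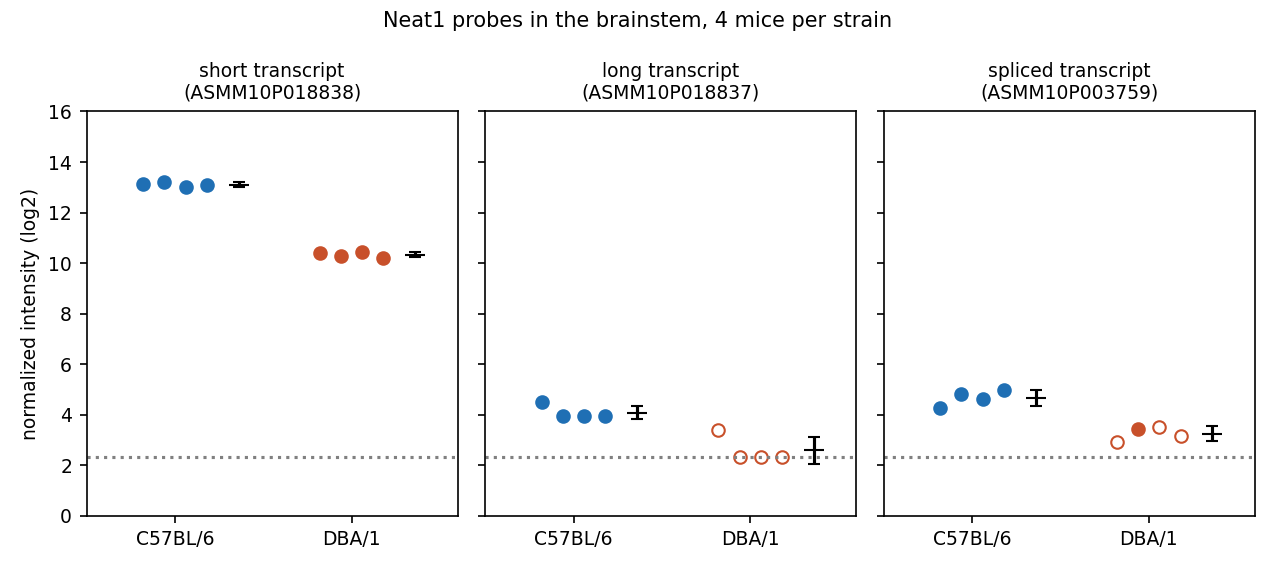
Normalized log2 intensity of each Neat1 probe in each mouse, with the mean and SD of 4 mice beside the points; filled points were well above background, open points were not, and the dotted line is the floor. The strains do not overlap at any probe, and 3 DBA/1 values of the long-transcript probe sit on the floor.

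For the short-transcript probe, the intensities in scanner units were 9665, 10211, 10179 and 13914 in C57BL/6 replicates 1 to 4. In DBA/1 replicates 1 to 4 they were 1131, 1098, 857 and 1206. The lowest C57BL/6 mouse thus stood far above the highest DBA/1 mouse before any scaling. After quantile normalization the C57BL/6 values were 13.13, 13.20, 13 and 13.10 and the DBA/1 values 10.39, 10.29, 10.42 and 10.22. The gap between the nearest mice of the strains was 2.58 log2 units, about the size of the mean difference itself.

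The mean strain difference of the short-transcript probe was -2.77 ± 0.13 log2 (SE), or 6.84-fold lower in DBA/1. Of the tested probes, 117 (0.356%) had a difference this low or lower. The size depended on the scaling between arrays. The ratio of the unscaled mean intensities was 10.2, since the 75th percentile of the intensities ran from 73.5 to 112 on the C57BL/6 arrays and from 50.1 to 76.1 on the DBA/1 arrays. Without scaling, the median tested probe itself had a difference of -0.44 log2, and relative to that median the difference of the short-transcript probe was -2.91 log2.

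The spot itself was well measured. It was well above background on 8 of 8 arrays by the scanner software, was never saturated and never marked as an outlier. Its stated error was 10% of the signal on each array. A far dimmer probe inside the gene, ASMM10P003761, had 10.1% to 10.3% in C57BL/6, so this error does not set the spot apart. The short-transcript probe ranked between 684 and 789 of 60804 probes by brightness in C57BL/6 and between 3224 and 3507 in DBA/1. The SD within strains, pooled over both, was 0.088 log2, against a median of 0.279 over all tested probes, and 0.979% of tested probes had a smaller one. This small spread depended on the order of processing: with outlier spots left out before normalization, an order tried after seeing the data, the SDs were 0.29 in C57BL/6 and 0.21 in DBA/1 in place of 0.08 and 0.09.

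The long-transcript probe gave another picture. Its intensities were 23.4, 14.5, 18.3 and 22.5 in C57BL/6 replicates 1 to 4, and each of these 4 spots was well above background. In DBA/1 replicates 1 to 4 they were 12.3, 4.94, 4.11 and 3.75, and none of the 4 was well above background. The strains did not overlap, but C57BL/6 replicate 2 and DBA/1 replicate 1 were close. Over all tested probes, 7.28% had every DBA/1 value below every C57BL/6 value.

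On the normalized scale the long-transcript probe stood at 4.08 ± 0.27 in C57BL/6 and 2.59 ± 0.54 in DBA/1 (SD, n = 4), a difference of -1.49 ± 0.26 log2 (SE). In DBA/1, 3 of its 4 values were at the floor of 2.32, set at an intensity of 5, and have no order among themselves. The probe entered the test only through C57BL/6, since a probe had to be well above background on at least 4 of 8 arrays, so it had to differ. With the DBA/1 spots taken as limits, the brightest value not well above background on each array gives at least 1.13-fold lower in DBA/1. With the dimmest value well above background, or the spot's own where higher, as in DBA/1 replicate 1, the figure was 1.86-fold. That figure is not a bound, since some values not well above background exceeded the dimmest one well above it on every DBA/1 array. Before a spot's own value was considered, these limits ran from 3.62 to 4.41 and from 2.82 to 3.32 log2 on the DBA/1 arrays.

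The spliced-transcript probe had intensities of 19.9, 27.0, 29.2 and 47.5 in C57BL/6 replicates 1 to 4, all well above background. In DBA/1 replicates 1 to 4 they were 9.34, 9.21, 7.26 and 8.59, of which only replicate 2 was well above background. The strains did not overlap, and the C57BL/6 mice were spread more widely than the DBA/1 mice on the intensity scale. On the normalized scale the means were 4.66 ± 0.31 and 3.25 ± 0.28 (SD, n = 4), a difference of -1.41 ± 0.20 log2 (SE), or 2.66-fold lower in DBA/1. With 1 of 4 DBA/1 spots measured above background, this fold rests on signals that the scanner software mostly did not separate from background.

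Spots of 15 negative-control probes, 300 on each array, gave a background outside the tested table. Their 95th percentile was 9.26, 6.58, 7.84 and 9.87 on C57BL/6 arrays 1 to 4 and 12.8, 5.19, 4.50 and 5.99 on DBA/1 arrays 1 to 4. Every C57BL/6 spot of the long-transcript and spliced-transcript probes exceeded the percentile of its own array. In DBA/1 the long-transcript probe was below it on 4 of 4 arrays, with 6% to 12% of the negative spots at or above its signal.

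The spliced-transcript probe exceeded that percentile on DBA/1 arrays 2, 3 and 4, where 1.67%, 1.00% and 1.33% of negative spots reached its signal. On DBA/1 array 1, which had the highest background of all 8, 16.3% did. The spliced-transcript probe thus stood above the negative spots on 3 DBA/1 arrays although its flag was set on 1. The stated spot error was 26.3% to 41.4% of the signal for the long-transcript probe and 22.4% to 30.4% for the spliced-transcript probe in DBA/1. In C57BL/6 it was 12.9% to 15.8% and 11% to 15%.

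**Figure D3:**
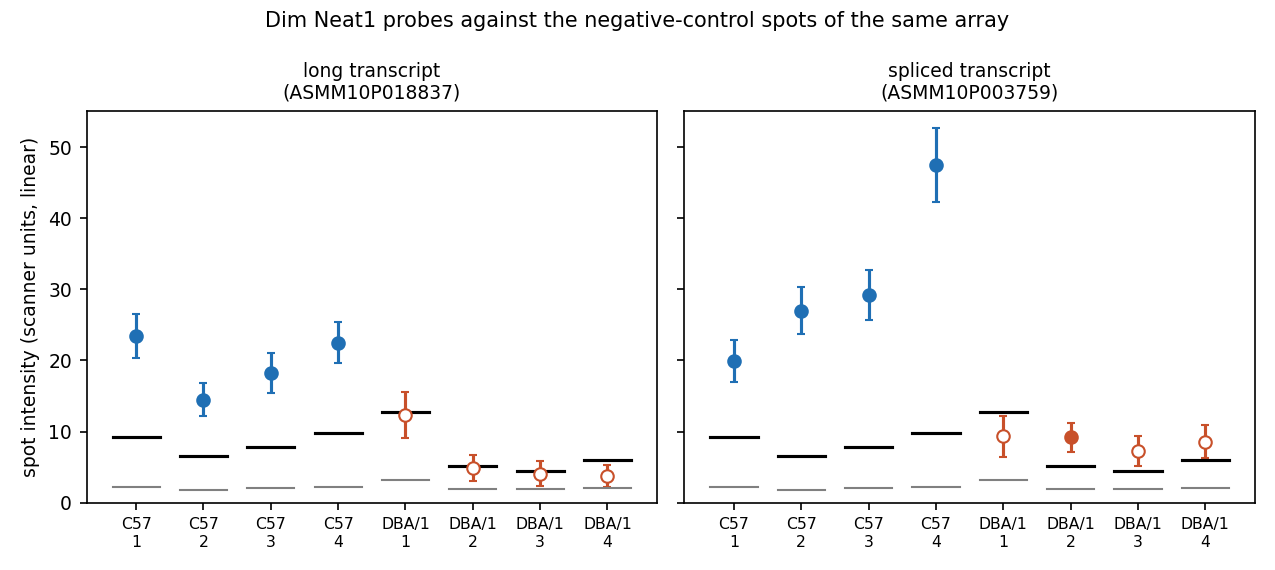
Intensity on a linear scale of the long-transcript and spliced-transcript probes on each array, with the stated spot error; black lines are the 95th percentile and grey lines the median of 300 negative-control spots of the same array, and open points were not well above background. All C57BL/6 points lie above the black line, and the DBA/1 points of the long-transcript probe lie below it.

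The dim differences were far smaller under 1 alternative. With the normexp correction, which used the median spot signal and added an offset of 50 that exceeds every intensity of the dim probes, the differences were -0.23 for the long-transcript probe and -0.29 for the spliced-transcript probe, while that of the short-transcript probe was -2.79. Under that correction 1 of the 3 probes was called. The parts of the correction, the signal and the offset in this move were not told apart.

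The size of the strain difference could not be ordered across the 3 probes. The C57BL/6 mean was 10.78 log2 above the floor for the short-transcript probe, but 1.76 above it for the long-transcript probe and 2.34 for the spliced-transcript probe. A fall as deep as that of the short-transcript probe could not have been recorded by either dim probe. Within an array, the short-transcript probe minus the long-transcript probe gave 8.64 to 9.25 log2 in C57BL/6 and 6.98 to 8.10 in DBA/1. These values compare probes of unlike sequence and are not ratios of the transcripts.

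The long-transcript probe minus the spliced-transcript probe ran from -1.05 to 0.24 log2 in C57BL/6 and from -1.19 to 0.51 in DBA/1. The C57BL/6 range is of spots well above background. In DBA/1, 3 of the 4 long-transcript values were set at the floor and 1 spliced-transcript spot was well above background, so nothing is read from the DBA/1 range or from a change between strains.

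Around the mean of each strain, the short-transcript probe moved between -0.11 and 0.09 log2. The long-transcript probe deviated by 0.41 in C57BL/6 replicate 1 and by 0.82 in DBA/1 replicate 1, and it was below its strain mean in all 6 other mice. In those 2 mice the spliced-transcript probe was the lowest of its strain, at -0.41 and -0.35.

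Deviations had the same sign for the long-transcript and spliced-transcript probes on 2 of 8 arrays. They had the same sign for the short-transcript and spliced-transcript probes on 4 of 8, and for the short-transcript and long-transcript probes on 6 of 8. In DBA/1 the sign of the long-transcript probe is fixed by replicate 1, since the other 3 values lie on the floor, so these counts are a description and no order of mice is read from them.

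**Figure D4:**
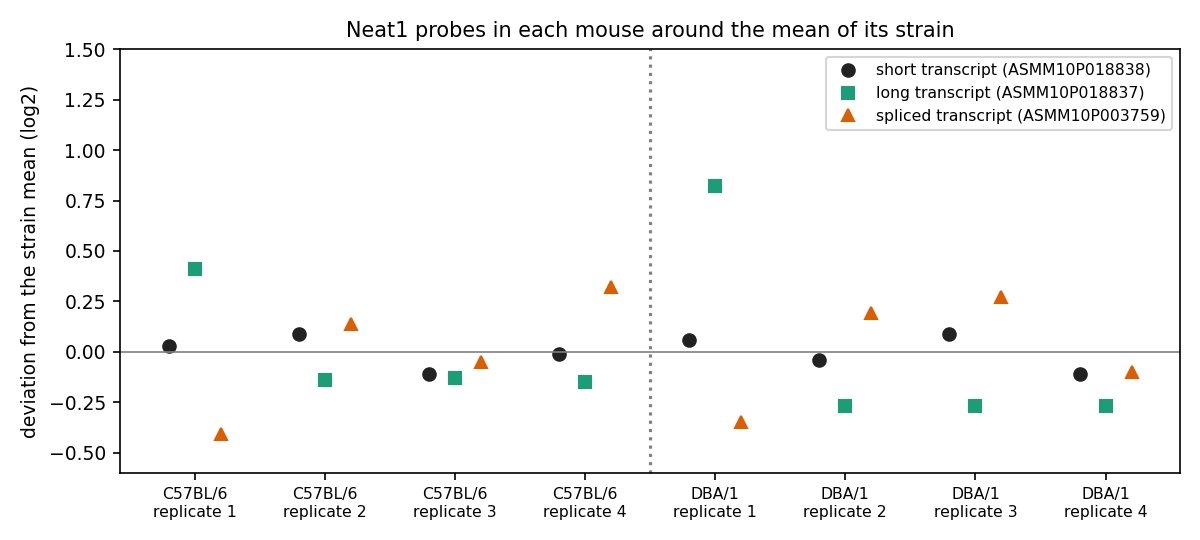
Deviation of each Neat1 probe from the mean of its strain in each mouse (log2). The short-transcript probe stays within -0.11 and 0.09, while the long-transcript probe is highest in replicate 1 of each strain, and its other 3 DBA/1 values are tied at the floor.

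The listed probes include 3 more inside the Neat1 gene, under accession names instead of the gene symbol, and they too were listed for this contrast. AK148054 (ASMM10P003760, uc008gfk.1) spans chr19:5842307-5845476 on the Neat1 strand, nearly the whole short transcript, with 166 bases spliced out. AK197973 (ASMM10P003761, uc008gfm.1) is a spliced fragment of 152 bases at chr19:5844339-5844633 on the same strand. For both of these probes the annotation also lists the spliced transcript as a target, so the spliced-transcript probe is not the only one assigned to it. AK181808 (ASMM10P019519, uc008gfl.1) lies at chr19:5843983-5845008 on the opposite strand. Their sequences show that AK181808 does not mirror AK148054, although the regions given for them overlap: the longest run shared with its reverse complement is 5 bases.
AK148054: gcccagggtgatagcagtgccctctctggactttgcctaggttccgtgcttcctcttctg
AK197973: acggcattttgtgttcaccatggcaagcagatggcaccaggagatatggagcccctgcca
AK181808: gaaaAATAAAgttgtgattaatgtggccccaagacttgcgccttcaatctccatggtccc

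The capitals again mark AATAAA, here near the 5′ end of the AK181808 probe. The AK197973 probe was well above background on all 8 arrays. Its normalized values were 6.32, 6.31, 5.89 and 6.22 in C57BL/6 replicates 1 to 4 and 4.17, 3.63, 4.72 and 3.49 in DBA/1 replicates 1 to 4. The strains did not overlap, and its difference of -2.18 ± 0.26 log2 (SE) was nearest to that of the short-transcript probe.

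The AK148054 probe had 5.90, 5.91, 5.64 and 6.21 in C57BL/6 and 3.37, 4.59, 4.91 and 5.08 in DBA/1. DBA/1 replicate 1 was the lowest of these and the 1 array of 8 on which it was not well above background. Its difference was -1.43 ± 0.33 log2 (SE). The AK181808 probe, on the opposite strand, was well above background on 8 of 8 arrays.

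AK181808 stood at 5.66, 5.41, 5.74 and 5.73 in C57BL/6 and 4.75, 3.63, 4.30 and 4.36 in DBA/1, again without overlap, with a difference of -1.38 ± 0.22 log2 (SE). Probes annotated to either strand of this stretch thus read lower in DBA/1. All were listed for this contrast, and the strand of the RNA that bound them was not checked. The C57BL/6 means of these 3 probes were 3.31 to 3.86 log2 above the floor. The floor thus left room for a fall as deep as that of the short-transcript probe, but background lay above the floor. On the DBA/1 arrays the brightest values not well above background ran from 3.62 to 4.41 log2. A fall that deep may therefore not have been measurable, and the shallower differences of these 3 probes are not read as smaller falls. Whether a probe, its target or the sequence of the strain sets these sizes was not tested.

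**Figure D5:**
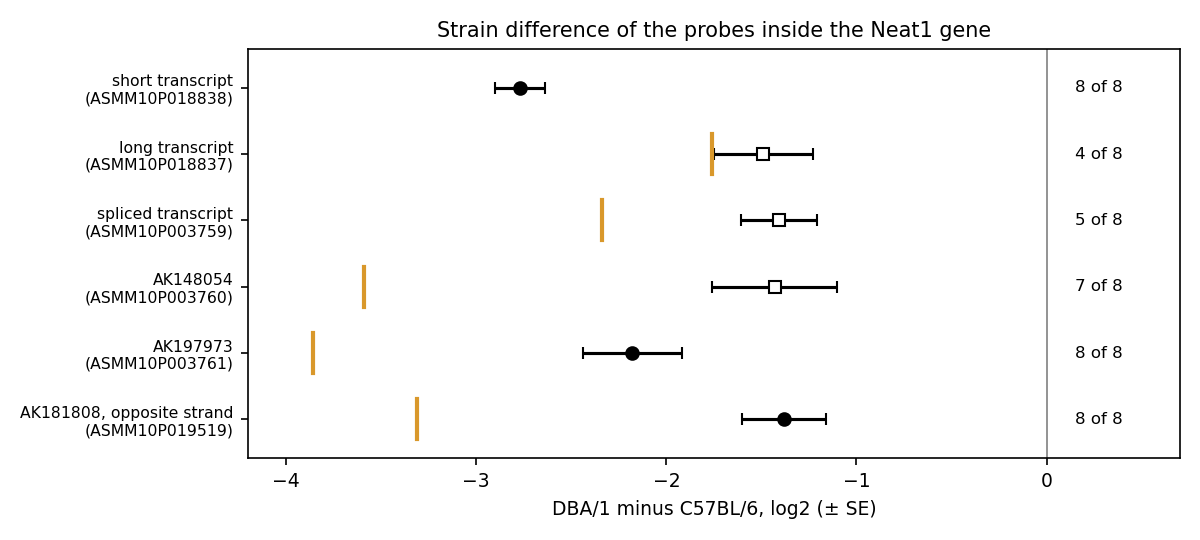
Strain difference (DBA/1 minus C57BL/6, log2, ± SE) of the 6 probes inside Neat1; filled circles were well above background on all 8 arrays and open squares on fewer (number at the right), and the orange tick is the largest fall the floor would allow (beyond the left edge for the short-transcript probe). All 6 are below 0, and the long-transcript probe lies near its tick.

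Some other genes had several listed probes, and Neat1 was not alone in the spread among them. The 3 Neat1 differences spanned 1.36 log2. The 5 probes of 1500004A13Rik spanned 4.63, from -6.23 to -1.61, with 1 of the 5 well above background on all 8 arrays. The 4 probes of AA465934, each above background on all arrays, spanned 0.28, and the 6 probes of Gas5, a snoRNA host gene, spanned 1.40 with all 6 above background. Also with at least 3 listed probes, A530058N18Rik spanned 1.79, 2900076A07Rik 0.86 and XLOC_016787 0.68. Among the listed probes, a wide span was thus seen both with and without dim probes. The list needed a strain difference of at least 2-fold. Probes of these genes with a smaller difference are therefore missing, and the spans are a description.

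Few genes around Neat1 could be named. RefSeq holds 48 other genes within 300 kb, of which 1, Fau, had a listed probe under its symbol. Fau, also listed for this contrast, which encodes a ribosomal protein made as a fusion with a ubiquitin-like protein, lies 212 kb away at chr19:6057967-6059524. It had 7.87, 7.96, 7.87 and 7.86 in C57BL/6 and 9.70, 9.75, 10.01 and 9.66 in DBA/1, higher in every DBA/1 mouse by a mean of 1.89 ± 0.14 log2 (SE). The lower signal in DBA/1 was thus not shared by this neighbour, and Malat1, the closest large lncRNA, was not analysed here.

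The list of 19 genes whose products join Neat1 in paraspeckles, among them Sfpq and Nono, had no member with a listed probe, and neither had the list of 9 other nuclear lncRNAs. Names were at hand only for the 1183 listed probes, so these genes were not analysed here. Of the marker lists, Tph2, the enzyme of serotonin synthesis in the raphe of the brainstem, was well above background on 8 of 8 arrays, at 9.72 ± 0.54 in C57BL/6 and 11.40 ± 0.16 in DBA/1 (SD, n = 4). A listed lncRNA probe under the symbol Slc6a4, the serotonin transporter gene, was above background in 1 C57BL/6 and 4 DBA/1 mice, at 3.04 ± 0.50 and 4.64 ± 0.40. The Slc6a4 probe met the filter only through DBA/1, where it was high, so no size of difference is read from it. Markers of neurons, glia, endothelium, cerebellum and blood had no listed probe and were not analysed here, so their part in the Neat1 values was not tested.

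The listed probes whose pattern over the 8 arrays was most like the short-transcript probe were found by the root-mean-square difference of values centred on each probe's own mean. They were lncRNA probes for Gm26632, XLOC_012418, AK137713, 2310002F09Rik and Gm15663, at 0.138, 0.140, 0.158, 0.167 and 0.169 log2, against a median of 0.845 over 1155 probes compared. The first 4 were above background in C57BL/6 only, with DBA/1 means of 2.32 to 2.39, at or just above the floor, so they passed the filter only through C57BL/6 and their likeness follows from how far the C57BL/6 mean lay above the floor. All were listed for the strain difference, and this order is a description. Gm15663 was above background on all 8 arrays, with 8.90 in C57BL/6 and 6.19 in DBA/1. AK197973 was 100th in this order, AK181808 413th and AK148054 585th.

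Across the whole series, 29301 to 36162 probes per array were well above background. Arrays of the same strain correlated at 0.961 to 0.987 and arrays of different strains at 0.949 to 0.972 over the tested probes. All 8 arrays were on 1 slide, with C57BL/6 in 1 row and DBA/1 in the other, so the row and the strain cannot be told apart.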

How the data were processed

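Per the labels, rRNA-depleted brainstem RNA was labelled with Cy3, and the authors extracted spot intensities with Agilent Feature Extraction 11.0.1.1. The deposited intensity is background-subtracted. The deposited log2 table holds the authors' quantile-normalized values. Probe names, positions and sequences came from the study's supplementary probe lists, whose columns of folds and p-values were not used. Those lists hold 1183 probes, selected on the strain difference. Positions were set against RefSeq GRCm38.p6: of 424 listed mRNA probes matched by accession, 406 lay inside their gene.

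The 3 Neat1 probes and the gene lists were chosen with earlier results of these data known. Intensities were floored at 5, taken as log2 and quantile-normalized over 60804 probes, and outlier spots were masked afterwards. Masking them first shifts ranks unevenly: 75 to 391 of the 1000 brightest spots per array carried the flag. The values differed from the authors' log2 table by at most 0.0539 above the floor. Probes well above background on at least 4 of 8 arrays were tested, 32875 in all, with limma 3.58.1 in R 4.3.3 (lmFit, eBayes), DBA/1 minus C57BL/6, which gave the differences and SEs. The code was tested on simulated data. Calls needed a 2-fold difference and an unadjusted p under 0.05. The number of arrays, 4 mice per strain, limits the precision. Besides Neat1 and list members, the text names the 5 listed probes most like the short-transcript probe, and the probes within 300 kb. Genes with at least 3 listed probes were chosen for naming after their values were seen. Alternatives were other scalings, floors, background corrections, filters, folds, a t-test with pooled variance, the replicate number as a block, and each mouse left out.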

Additional observations from a re-analysis of the deposited data

Results flagged for a closer look

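In 2 of the 12 sets of 4 mice looked at, 6 probes by 2 strains, 1 mouse lay far from the other 3, both times at the long-transcript probe (ASMM10P018837). In C57BL/6, replicate 1 was the highest, and its gap to the next mouse was 0.963 of the range of the 4 values. In DBA/1, replicate 1 was the highest and the gap was 1.00 of the range, since the other 3 values lay on the floor. Chance alone marks about 1 such set in 20 where no value is floored, so this rate does not hold for the DBA/1 set. The DBA/1 replicate 1 spot, at an intensity of 12.3, was itself not well above background. The 95th percentile of the negative spots on that array was 12.8. Without DBA/1 replicate 1 the difference of this probe was -1.75 log2, and without C57BL/6 replicate 1 it was -1.35, against -1.49 with all mice.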

How the results depend on the processing

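Each of the 3 Neat1 probes kept its direction under every alternative that gave a value. Leaving out 1 mouse in turn gave differences of -2.82 to -2.74 for the short-transcript probe, -1.75 to -1.35 for the long-transcript probe and -1.55 to -1.30 for the spliced-transcript probe, with 3 of 3 called and 1374 to 1619 calls over all tested probes, against 1413. The short-transcript difference, -2.77 ± 0.13 (SE) in the main setting, moved to -2.90 with scaling to the 75th percentile, about as far as its SE. With no scaling it moved further, to -3.35, where the spliced-transcript difference was -1.78 and 2669 probes were called. With normexp the long-transcript and spliced-transcript differences moved to -0.23 and -0.29, with 1 of 3 and 351 called. Only the short-transcript probe was tested where all 8 arrays had to be well above background (1 called, 624 over all probes), and only it passed a fold of 3 (1 called, 572 over all probes). A fold of 1.5 gave 3361 calls, and a t-test with pooled variance after Benjamini-Hochberg 917, with 2 of 3 Neat1 probes.

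No scaling, and leaving outlier spots out before normalization, were chosen after seeing the data. The second gave -2.82 for the short-transcript probe but widened its C57BL/6 SD from 0.08 to 0.29 and its DBA/1 SD from 0.09 to 0.21. The cause of the other moves was not tested. The labels do not say that a replicate number marks anything shared. Same-numbered arrays correlated at 0.375, 0.0185, 0.132 and 0.306 in their deviations, and the DBA/1 array with the same number was the best match for C57BL/6 replicates 1, 3 and 4 but not 2, a hint from the data only. With the number as a replicate block the differences stayed at -2.77, -1.49 and -1.41, the SE of the long-transcript difference went from 0.26 to 0.15, and 1417 probes were called. The slide could not be a block, since there was 1. The signal over background limits the long-transcript and spliced-transcript probes in DBA/1, and a depth of fall beyond the floor was not measurable there.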
